A study of Mus musculus with 18 samples.

Results

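The BCL-2 family genes Bcl2, Bcl2l1, Mcl1, Bax, Bak1, Bcl2l11, Bbc3, Pmaip1 and Bid were described by the cohesin and CTCF peaks around them in mouse thymocytes. A peak belonged to a gene if it lay in the gene body or within 100 kb of it on either side in the RefSeq gene table. Over all 7 peak lists analysed, 727 peaks fell in the 9 windows. For SMC1A, a core subunit of the cohesin ring, these were 88 of 19882 and 89 of 20638 peaks in the WT lists (replicates 1 and 2), and 102 of 28151 and 75 of 20689 in the Satb1 KO lists. For CTCF they were 131 of 38989 peaks in the WT list, and 167 of 55750 and 75 of 22928 in the Satb1 KO lists. The 9 genes are among 21883 protein-coding genes of the table.

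The samples were sorted CD4 CD8 double-positive (DP) thymocytes of 2 genotypes, WT and Satb1 KO, and mice of both genotypes had been given tamoxifen. Satb1 encodes a chromatin organiser abundant in thymocytes, and its deletion in the KO was induced by tamoxifen. For the recombinase's driver, the time after tamoxifen and the ages of the mice, the sources used here give nothing. CUT&RUN uses an antibody to tether a nuclease at the sites of a chromatin protein, and the fragments it cuts loose are sequenced. Replicate numbers are also the batch numbers of the labels, and nothing says that replicates were separate animals, so a p-value speaks only of the variation among these libraries, which may be technical.

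The family decides whether the outer mitochondrial membrane is breached, the committing step of intrinsic apoptosis. BCL-2, BCL-xL (from Bcl2l1) and MCL-1 hold the membrane intact, BAX and BAK form the pore, and the BH3-only proteins BIM (from Bcl2l11), PUMA (from Bbc3), NOXA (from Pmaip1) and BID bind the others to release or activate the pore formers. DP thymocytes are known for relying on BCL-xL and MCL-1 to survive until selection, and BIM is known for the deletion of self-reactive thymocytes. Cohesin extrudes chromatin loops and commonly stops at CTCF, so peaks of both proteins mark candidate loop anchors; they do not measure expression.

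The sequences where these data and the CTCF motif meet are shown first. Promoter windows from 250 bases before to 50 after each start came from RefSeq (GRCm38.p6, the assembly that mm10 represents) and were present for 8 of the 9 genes, with 13 windows in all. They were searched on both strands for 4 letter strings from the core of the CTCF motif, AGGGGGC, then AGGTGGC, then AGATGGC, and lastly AGAGGGC. At least 1 string was present in 6 of the 13 windows, against 29.9% of 21262 promoter windows of the genome. All 3 Bbc3 windows were among the 6, and 1 of their matches lies in 2 overlapping windows, so the windows are not independent. Across the genome a string was in 40.4% of the windows whose start lay in a CTCF region of all 3 lists and in 25.8% of the others. The matches lay in Bcl2, Bcl2l1, Bcl2l11 and Bbc3, and no string was in the windows of Mcl1, Bax, Bak1 or Bid. A match is a description of these letters only.

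Bbc3 held 3 of the 6 distinct matches, and the Bbc3, Bcl2l11 and Bcl2l1 stretches of 30 bases around a match are given 5′ to 3′ along the gene with the matched string in capitals. They lie at chr7:16309457-16309486, chr7:16310116-16310145 and chr7:16310260-16310289 on the plus strand, at chr2:128127330-128127359 on the plus strand, and at chr2:152828457-152828486 on the minus strand.
Bbc3 first: cgcgccgaggtAGGGGGCgcggcgcccgac
Bbc3 second: ggctcgcccgcGCCCCCTggtggctagtga
Bbc3 last: ggggcggcgacAGGGGGCggcggaggctgt
Bcl2l11: gaagctgcccgGCCCCCTaagttccagccg
Bcl2l1: gaatcctgctcGCCACCTcatcagtcaggg
The second Bbc3 match lay inside the peak of every one of the 7 lists, 47 to 85 bp from the peak's summit, the point of highest pile-up. The first Bbc3 match lay inside the peak in 3 lists, 574 to 612 bp from the summit, and the last in 5 lists, 191 to 229 bp from it. The Bcl2l11 match lay inside the peak in 6 lists, 3 to 135 bp from the summit, and outside that of the Satb1 KO CTCF replicate 2 list, whose nearest summit was 196 bp away. The Bcl2l1 match lay in a weak peak of only the Satb1 KO replicate 1 SMC1A list and the WT CTCF list, and not in the main peak of that gene.

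The 250 bases before the only listed start of Bcl2 (chr1:106714291-106714540, minus strand) and of Bax (chr7:45466899-45467148, minus strand) are shown because the first holds a match and SMC1A peaks while the second holds neither. Capitals again mark the string.
Bcl2: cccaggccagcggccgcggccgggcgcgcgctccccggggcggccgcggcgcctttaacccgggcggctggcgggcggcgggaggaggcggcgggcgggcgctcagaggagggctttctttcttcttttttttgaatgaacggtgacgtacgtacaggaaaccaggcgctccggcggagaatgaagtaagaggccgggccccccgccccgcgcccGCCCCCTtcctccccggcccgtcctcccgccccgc
Bax: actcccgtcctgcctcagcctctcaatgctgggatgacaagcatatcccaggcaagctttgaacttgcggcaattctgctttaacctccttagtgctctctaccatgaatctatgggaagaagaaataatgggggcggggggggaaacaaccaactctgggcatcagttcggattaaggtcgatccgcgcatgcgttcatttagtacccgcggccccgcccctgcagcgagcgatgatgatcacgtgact
The Bcl2 match lay inside a peak of both Satb1 KO SMC1A lists, 51 and 62 bp from the summit, and of the Satb1 KO replicate 1 CTCF list, 71 bp from it. In both WT SMC1A lists the nearest peak did not reach the match, and its summit was 391 and 515 bp away. The same held for the CTCF lists of WT and Satb1 KO replicate 2, with summits 323 and 888 bp away.

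Read depth is unknown from peak lists. A proxy, the lowest local background that the caller's own statistics imply, was 0.384 to 0.633 reads for SMC1A and 1.02 (WT), 1.82 and 3.28 (Satb1 KO replicates 1 and 2) for CTCF. The Satb1 KO replicate 2 libraries thus had the lowest proxy for SMC1A and the highest for CTCF, with the shortest CTCF list. A peak list does not measure the Satb1 deletion, so the genotype labels cannot be checked here; the WT lists had 18 and 20 SMC1A peaks in the Satb1 window, and the Satb1 KO lists 16 and 5. The log2 density change there was -1.28 ± 0.20 (SE; limma adjusted p = 2.7e-07), and it was -0.71 (adjusted p = 0.075) without Satb1 KO replicate 2. With WT replicate 1 or 2 left out the adjusted p was 0.53 or 0.55. Nor can peaks show the cell type: windows of the 7 DP thymocyte markers held 28 to 74 SMC1A peaks over the 4 lists, and those of 3 B cell markers 4 to 53.

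SMC1A peak numbers per window and list ranged from 1 to 18 among the genes. Bcl2l1 and Bbc3 had the most. In Bcl2l1 the SMC1A lists held 15, 16, 18 and 14 peaks (WT replicates 1 and 2, then Satb1 KO replicates 1 and 2), and in Bbc3 15, 16, 18 and 13. Each of these counts lay at percentile 94.8 or higher among all genes in its list. Pmaip1 was at the other end with 1, 1, 3 and 3 SMC1A peaks, between percentiles 26.8 and 47.0. The order of the rest by WT peaks was Bak1, Bax, Mcl1, Bcl2, Bid and Bcl2l11, and neighbours in that order such as Bak1 and Bax, or Mcl1 and Bcl2, differed by no more than the 2 lists of a genotype did in 1 of them. Window lengths ran from 205.2 kb at Bax to 376.1 kb at Bcl2, so the same count stands for fewer peaks per length at Bcl2. At Bcl2l1, with 275.1 kb, WT replicate 1 held 5.45 SMC1A peaks per 100 kb, below Bbc3 (7.14), Bax (5.85) and Bak1 (5.75).

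**Figure D1:**
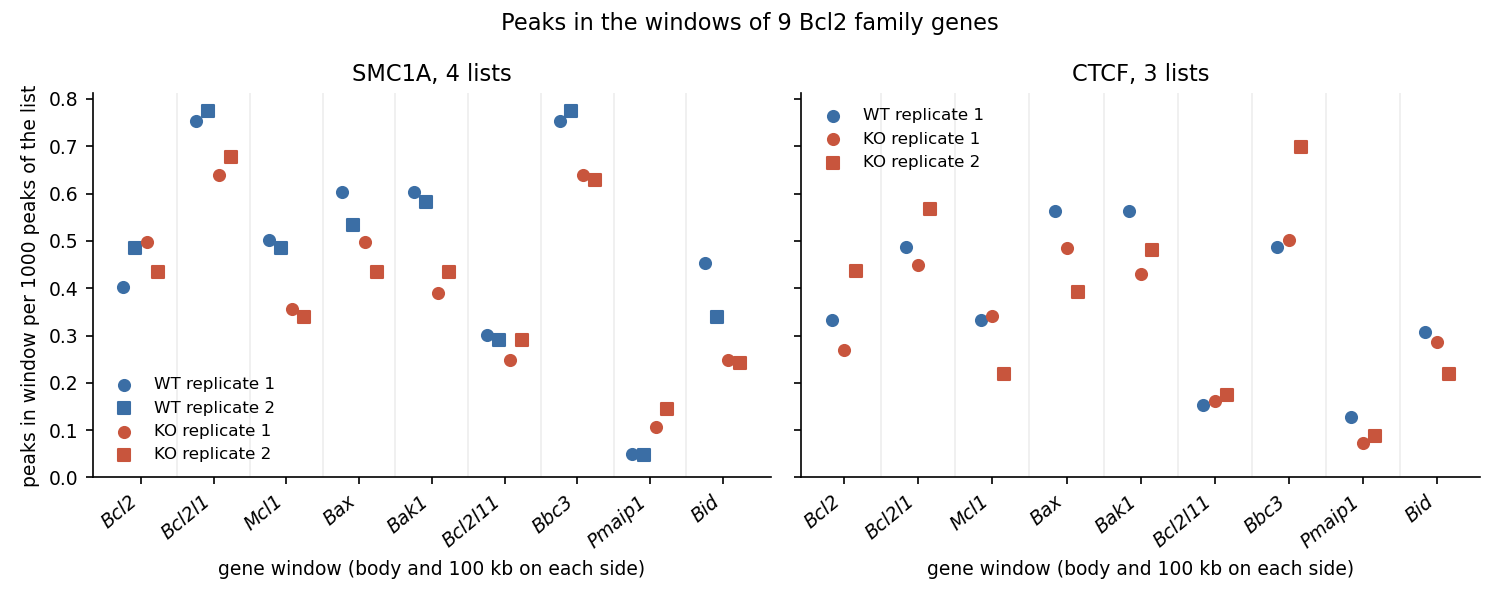
Peaks in each gene window per 1000 peaks of the list (y axis) for SMC1A (left, 4 lists) and CTCF (right, 3 lists); each point is 1 list, blue for WT and red for Satb1 KO, circles for replicate 1 and squares for replicate 2. Bcl2l1 and Bbc3 sit highest for SMC1A, between 0.628 and 0.775, and Pmaip1 lowest, between 0.0485 and 0.145.

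Bcl2, the founding survival gene of the family (chr1:106538176-106714290), had 8, 10, 14 and 9 SMC1A peaks. The genotypes overlapped, since the WT densities were 0.402 and 0.485 per 1000 peaks and the Satb1 KO densities 0.497 and 0.435. CTCF peaks numbered 13 in WT and 15 and 10 in Satb1 KO. An SMC1A region merged from peaks of all 4 lists spans its start (chr1:106713369-106714624), though only the Satb1 KO peaks reach the start itself. The authors' −log10 q of this region was 4.36 and 6.18 in WT and 13.5 and 6.87 in Satb1 KO. Its rank within the list was the top 80.0% and 58.2% in WT and the top 31.7% and 50.4% in Satb1 KO. Such values rank a peak within its own list only, and here and below they are set side by side without a comparison between lists. The position of the summit within that region differed between lists. It was 359 and 483 bp inside the gene in the WT lists, while the strongest peak of both Satb1 KO lists had its summit just before the start, at -83 and -94 bp. In Satb1 KO replicate 1 a further peak sat at 488 bp, close to the WT position. CTCF summits did not follow the same split. They lay at 291 and -567 bp in WT, at -103 bp in Satb1 KO replicate 1 and at 856 bp in Satb1 KO replicate 2. Among SMC1A regions held by all lists, the one whose lowest rank over the 4 lists was best lay in Vps4b, at -82.4 kb from the start (chr1:106796400-106797011; top 9.10% to 28.4% of each list). A region in Kdsr ranked higher in WT replicate 1 and Satb1 KO replicate 1. No SMC1A region was lost or gained at Bcl2, where lost means held by both WT lists and neither Satb1 KO list, and gained means the reverse.

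Bcl2l1, the gene of BCL-xL (chr2:152758732-152833803), carried the strongest SMC1A peak of the 9 windows in every list, and the strongest CTCF peak in the WT list. The region chr2:152829409-152832322 covers 2 of its 3 listed starts. SMC1A −log10 q there was 365 and 331 for WT, then 360 and 242 for Satb1 KO. Those values had ranks 26, 30, 20 and 20 in the 4 lists, within the top 0.15% of each. Pile-up at the summit, solved from the caller's values, was 195 and 176 reads in WT and 199 and 132 in Satb1 KO, with a fold enrichment of 100, 96.2, 94.5 and 78.5. The lowest value was that of Satb1 KO replicate 2, the library with the lowest depth proxy. Summits lay 357, 198, 325 and 184 bp inside the gene from the outermost listed start, so the genotypes interleaved. The split followed the replicate number, which is also the batch, with 357 and 325 bp in replicate 1 and 198 and 184 bp in replicate 2. CTCF was there too in all 3 lists, with −log10 q of 212 in WT and 541 and 112 in Satb1 KO, in the top 0.19%, 0.20% and 0.41%; in both Satb1 KO lists a CTCF peak in the Bax window ranked higher. The promoter windows of the 2 starts covered by the region hold no string of the CTCF core, and the summits lie outside these windows.

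Of the 18 SMC1A regions of Bcl2l1, 10 were in all 4 lists, none was lost or gained, and 17 overlapped a CTCF region. Those 10 included chr2:152815637-152816950 in the gene body, at 12.2 kb from the nearest start. CTCF peaks numbered 19 in WT and 25 and 13 in Satb1 KO. Of 29 CTCF regions, 10 were in all 3 lists and 17 in a single one, and 4 were in the WT list and in neither Satb1 KO list; 3 of them, at chr2:152668495-152668913, chr2:152824684-152824921 and chr2:152828435-152828862, reached only 3.60, 4.41 and 2.96 on the −log10 q scale, low in that list.

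Mcl1, a survival gene whose protein turns over quickly (chr3:95656944-95663179), held 10 SMC1A peaks in each WT list and 10 and 7 in Satb1 KO. The densities were 0.503 and 0.485 per 1000 in WT and 0.355 and 0.338 in Satb1 KO and did not overlap, but the first Satb1 KO list held as many Mcl1 peaks as the WT lists out of a longer list. The shared region with the best lowest rank lay in Ensa, at -33.6 kb (chr3:95624579-95625566), with SMC1A −log10 q of 73.8, 89.5, 95.5 and 35.2 and CTCF −log10 q of 100, 292 and 38.3. Near the start, the region chr3:95659286-95660025 was in all 4 SMC1A lists (−log10 q of 5.66, 8.34, 6.95 and 9.17), and chr3:95658509-95658951, which covers the start, was missing from WT replicate 2. Downstream of the gene, 3 SMC1A regions between 7.54 and 14.2 kb from the start were in both WT lists and Satb1 KO replicate 1 and missing only from Satb1 KO replicate 2. The strongest of them, chr3:95668521-95669167, reached 23.4, 11.4 and 13.6 on the −log10 q scale where it was called. Mcl1 thus had 3 of the 6 regions in the 9 windows that only Satb1 KO replicate 2 lacked. Regions missing from 1 library alone numbered 6 for WT replicate 1, 5 for WT replicate 2 and 1 for Satb1 KO replicate 1, and the part of depth in this was not tested. CTCF peaks at Mcl1 numbered 13 in WT, and 19 and 5 in Satb1 KO replicates 1 and 2.

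Bax and Bak1 encode the pore formers. Bax (chr7:45461695-45466903) had 12, 11, 14 and 9 SMC1A peaks and 22, 27 and 9 CTCF peaks. Of the 8 genes with a listed start, Bax alone had its start in no SMC1A region of any list. A CTCF region covered that start (chr7:45466625-45467155) in the WT list and in Satb1 KO replicate 1, with a −log10 q of 9.27 and 11.4. Strong regions lay farther off among 15 other genes of this gene-dense window. The SMC1A region of all lists with the best lowest rank was in Snrnp70, at 71.1 kb (chr7:45395284-45396368), in the top 1.45% and 2.16% of the WT lists and the top 3.58% and 2.11% of the Satb1 KO lists. In WT replicate 2 and Satb1 KO replicate 1 an SMC1A region at Gys1 and Ruvbl2 (chr7:45434109-45435195) ranked higher. The strongest for CTCF was at Gys1 and Ruvbl2, at 32.7 kb (chr7:45433008-45435382), in the top 0.39%, 0.14% and 0.38% of the 3 lists.

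Bak1 (chr17:27019812-27028627) had 12 SMC1A peaks in each WT list and 11 and 9 in Satb1 KO, and 22, 24 and 11 CTCF peaks. It held 2 of the 3 SMC1A regions lost in the 9 windows. The first, 4907 bp from Zbtb9 and 47.4 kb from the start (chr17:26981110-26981404), was called in WT at a −log10 q of 5.95 and 6.50. The second, at Uqcc2 and -96.6 kb (chr17:27125097-27125368), had 3.71 and 2.28. Both were weak, in the lower part of the WT lists, with a pile-up of 7 to 10 reads. CTCF was still called at the second in every list, with a −log10 q of 19.5 in WT and 44.2 and 14.8 in Satb1 KO, while at the first only Satb1 KO replicate 1 had a CTCF peak. At the start of Bak1, a CTCF region (chr17:27028307-27028846) was in all 3 lists and an SMC1A region (chr17:27028402-27028917) in all but WT replicate 2. The body of Ggnbp1 overlaps both. About 1 kb inside the gene, chr17:27027294-27027817 was in all 4 SMC1A lists, with a −log10 q of 12.3 and 2.18 in WT and 8.59 and 3.62 in Satb1 KO.

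**Figure D2:**
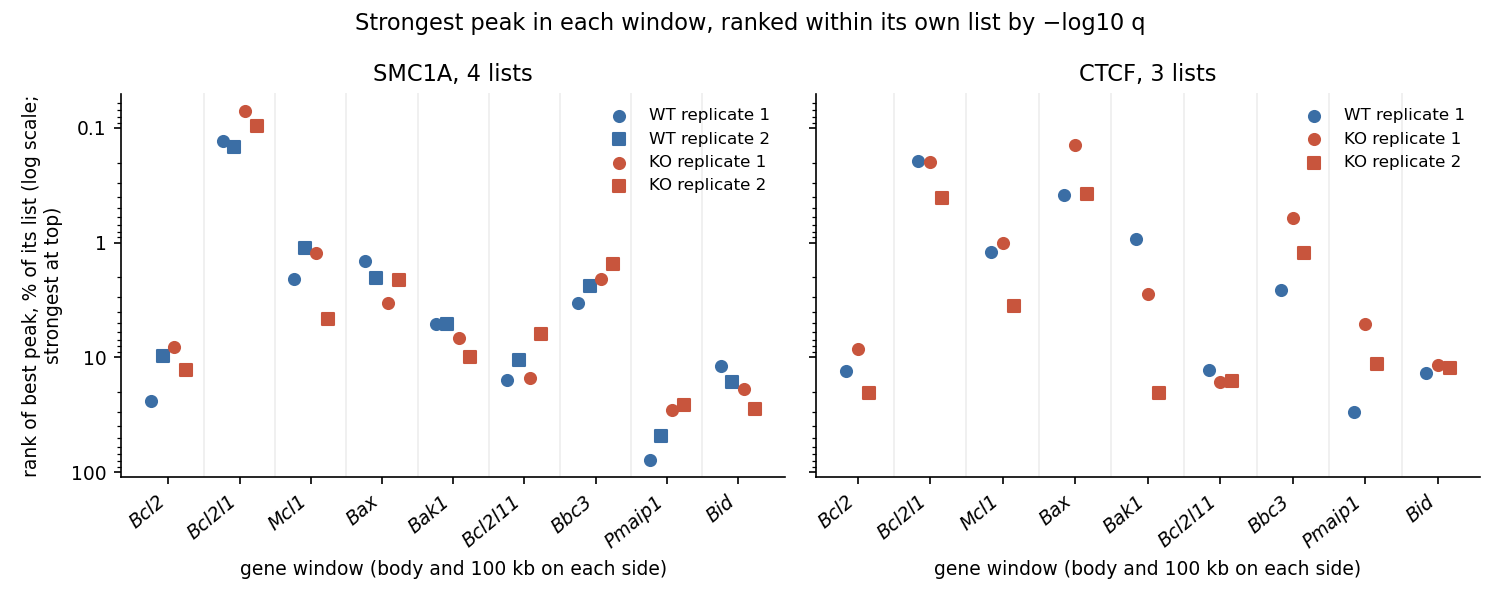
Rank of the strongest peak in each window as a percentage of its own list, by the authors' −log10 q (y axis, log scale, strongest at the top), for SMC1A (left) and CTCF (right); each point is 1 list. The Bcl2l1 peak stands at 0.071% to 0.145% in the SMC1A lists, and the best Pmaip1 SMC1A peak at 26.1% to 78.4%.

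Among the BH3-only genes, Bcl2l11 (BIM, chr2:128126038-128162547) held 1 of the 2 SMC1A regions gained in the 9 windows. SMC1A peaks at chr2:128060812-128061266, inside the neighbouring gene Acoxl at -65.0 kb from the start, were called in both Satb1 KO lists and in neither WT list. Their −log10 q was 17.5 and 9.01 and their pile-up 23 and 13 reads, which put them in the top 23.6% and 38.6% of their lists. CTCF showed the same split at that site (chr2:128060573-128061272), with no peak in the WT list and a −log10 q of 43.6 and 5.04 in the Satb1 KO lists. Only 1 WT CTCF list was analysed, so this absence has no replicate here. The window held 6, 6, 7 and 6 SMC1A peaks and 6, 9 and 4 CTCF peaks, and 4 of its 9 SMC1A regions were in all lists. Both listed starts lay in merged SMC1A regions of all 4 lists. The first of these (chr2:128125532-128126450) had a −log10 q of 21.0 and 15.8 in WT and 25.1 and 12.8 in Satb1 KO, and the second (chr2:128126844-128127715), which holds the match shown above, had 8.88 and 16.3 in WT and 17.5 and 6.76 in Satb1 KO. The SMC1A region of all lists with the best lowest rank was at 75.5 kb, past the end of the gene (chr2:128202943-128203149; −log10 q of 22.3, 26.4, 22.3 and 30.1); in Satb1 KO replicate 1 the region at the first start ranked higher.

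Bbc3 (PUMA, a p53 target; chr7:16308398-16318334) had the most SMC1A regions of the 9 genes, 20, of which 11 were in all 4 lists and none was lost or gained. The region over its 3 listed starts (chr7:16309301-16311312) had an SMC1A −log10 q of 23.1 and 18.4 in WT and 30.1 and 12.7 in Satb1 KO, and CTCF there had 42.4 in WT and 135.8 and 22.8 in Satb1 KO. The main summits of all 7 lists fell between 16310045 and 16310083, a span narrower than at the start of Bcl2 or Bcl2l1 and next to the second match shown above. The strongest SMC1A region of the window was in Zc3h4, at 89.6 kb (chr7:16399351-16400763; −log10 q of 57.5, 60.6, 76.5 and 58.0). CTCF peaks numbered 19 in WT and 28 and 16 in Satb1 KO. A CTCF region in Sae1, at 63.5 kb (chr7:16373705-16374163), was in both Satb1 KO lists and not in WT, with a −log10 q of 19.1 and 3.72. The genes with the most similar densities over the 7 lists were Mex3a, Rab25 and Lamtor2 on chromosome 3, at a Euclidean distance of 0.250, 0.273 and 0.273 in log2 units. Their windows share peaks with each other.

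Pmaip1 (NOXA, also a p53 target; chr18:66458604-66465558) had too few SMC1A peaks to pass the filter of the test, a mean of 3 over the 4 lists. The WT lists held 1 peak each and the Satb1 KO lists 3 each. The region chr18:66410334-66410824, at 47780 bp from the gene body, was gained for SMC1A, with a −log10 q of 4.83 and 5.00 and a pile-up of 8 and 7 reads. CTCF was called there in WT (4.31) and in Satb1 KO replicate 1 (23.6). On the other side, at chr18:66520151-66520606, SMC1A was in WT replicate 2 (7.79) and both Satb1 KO lists (14.9 and 12.6) but not in WT replicate 1. Without the filter its log2 density change was 0.97 ± 0.50 (SE; limma adjusted p = 0.41).

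Bid (chr6:120893119-120917062), whose protein links death receptors to the mitochondrion once cleaved, had 9, 7, 7 and 5 SMC1A peaks in the same order, and 12, 16 and 5 CTCF peaks. The region at its start (chr6:120916676-120917497) had a −log10 q of 26.8 and 19.3 in WT and 20.9 and 10.2 in Satb1 KO. It was the strongest of the window in both WT lists, while in each Satb1 KO list at least 1 other region of the window ranked higher. CTCF at the start (chr6:120916639-120917527) was called in WT (10.0) and Satb1 KO replicate 1 (31.7). The region chr6:120934065-120934646, in Mical3 at -17.5 kb, was lost for SMC1A, where the WT peaks had a −log10 q of 9.46 and 4.02. CTCF was still called there in WT (5.55) and in Satb1 KO replicate 1 (4.99).

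**Figure D3:**
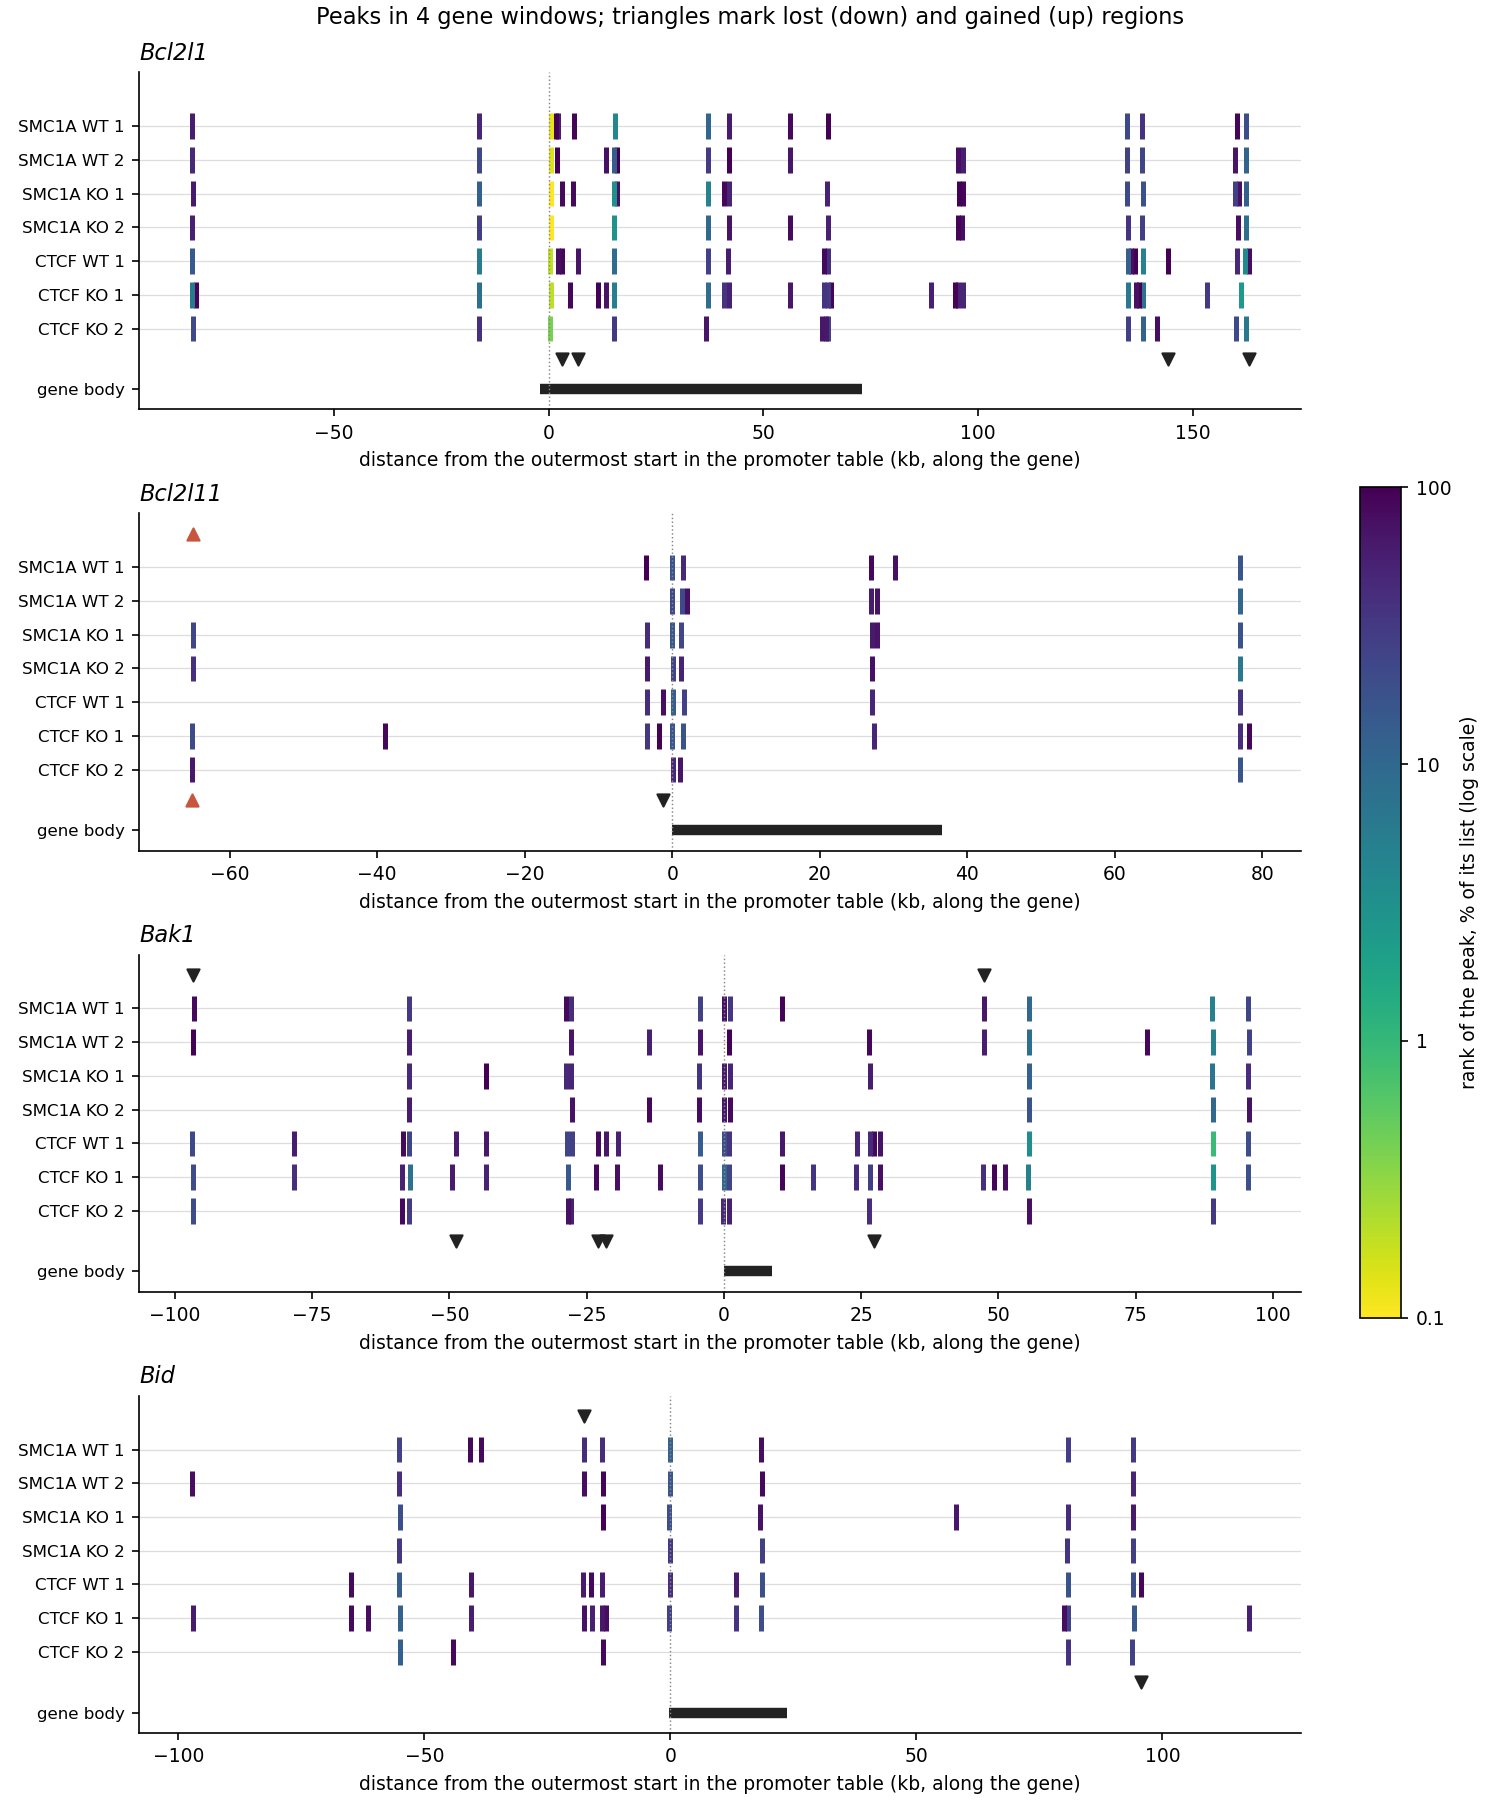
Peaks of the 7 lists (rows) in the windows of Bcl2l1, Bcl2l11, Bak1 and Bid against distance from the outermost listed start in kb along the gene, coloured by rank within the list; triangles above and below mark lost (down) and gained (up) regions of SMC1A and CTCF. The bright column at the Bcl2l1 start is in all 7 lists, and the gained column at -65.0 kb from Bcl2l11 is in the 4 Satb1 KO lists of both proteins.

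Taken over the 9 windows, SMC1A peaks formed 118 regions, of which 57 (48.3%) were in all 4 lists, against 35.0% of 35221 regions in the genome. Of the 67 regions in both WT lists 3 were lost (4.48%; genome 4.15%), and of the 70 in both Satb1 KO lists 2 were gained (2.86%; genome 13.1%). The lost share was near the background and the gained share below it, with no test of either. For CTCF, 60 of 185 regions were in all 3 lists. Of the 119 in the WT list 18 (15.1%; genome 18.9%) were in neither Satb1 KO list, and of the 62 in both Satb1 KO lists 2 (3.23%; genome 8.29%) were not in WT. Those 2 lay at Bcl2l11 and Bbc3. The CTCF counts rest on 1 WT list, and without Satb1 KO replicate 1 or 2 the new CTCF regions numbered 9 or 63. Genome shares were not computed with a replicate left out.

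Nearly every SMC1A peak of the family overlapped a CTCF peak of at least 1 list, of either genotype. Such an overlap can come from the other genotype's list alone. For merged SMC1A regions the share was 92.4%, and 78.4% with lists of equal length. The share of window peaks that overlapped a CTCF peak of any list was 95.5% (exact 95% binomial interval 88.8 to 98.7) and 94.4% (87.4 to 98.2) in the WT lists, and 96.1% (90.3 to 98.9) and 97.3% (90.7 to 99.7) in the Satb1 KO lists. The whole lists gave 95.8%, 93.8%, 95.04% and 96.3%, each inside the interval of its list. These intervals cover counting error only. Starts of 5 of the 8 genes lay in a merged SMC1A region of all 4 lists (Bcl2, Bcl2l1, Bcl2l11, Bbc3 and Bid), against 28.6% of 17491 genes with a listed start. For CTCF the number was also 5 (Bcl2, Bcl2l1, Bak1, Bcl2l11 and Bbc3), against 29.5%. In these counts and the next, a gene counted if any of its listed starts was covered, so several starts gave more chances. Bcl2l1 and Bbc3 have 3 listed starts each, Bcl2l11 has 2 and the others have 1. The shares over all genes were not matched for the number of starts. Merging can carry a list's region over a start that its own peak does not reach. When a peak of each list itself had to cover the start, a count chosen after seeing the data, 4 genes were left for SMC1A (Bcl2l1, Bcl2l11, Bbc3 and Bid; 23.3% of all genes) and 2 for CTCF (Bcl2l1 and Bcl2l11; 21.4%).

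No gene of the family passed the test of SMC1A peak density between genotypes. The log2 density, with 0.5 peaks added, was fitted with limma over 12544 genes, of which 129 (1.03%) were higher and 104 (0.829%) lower in Satb1 KO at an adjusted p under 0.05. Of the 8 family genes tested, 0 passed, and 3 had an unadjusted p under 0.05, as did 1744 (13.9%) of the 12544. These were Bid, at -0.65 ± 0.25 (SE; limma adjusted p = 0.18), Bak1, at -0.51 ± 0.21 (adjusted p = 0.24), and Mcl1, at -0.50 ± 0.23 (adjusted p = 0.29). The estimates of Bax (-0.28 ± 0.21), Bbc3 (-0.27 ± 0.19), Bcl2l1 (-0.22 ± 0.18), Bcl2l11 (-0.15 ± 0.26) and Bcl2 (0.06 ± 0.22) had unadjusted p-values of 0.15 to 0.79. Within batch 1 and batch 2 alone, Bid gave -0.84 and -0.45, Bak1 -0.62 and -0.40, and Mcl1 -0.50 and -0.49. The median of the 8 was -0.28, beside -0.11 over all genes tested. Counts were also simulated as Poisson draws around each gene's mean at the lengths of the 4 lists. On these the test found 3.74% of 2-fold and 52.6% of 4-fold changes, and smaller folds were not simulated. The draws had no added variation between libraries and no peaks shared between neighbouring windows, so the rates need not hold for these lists.

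**Figure D4:**
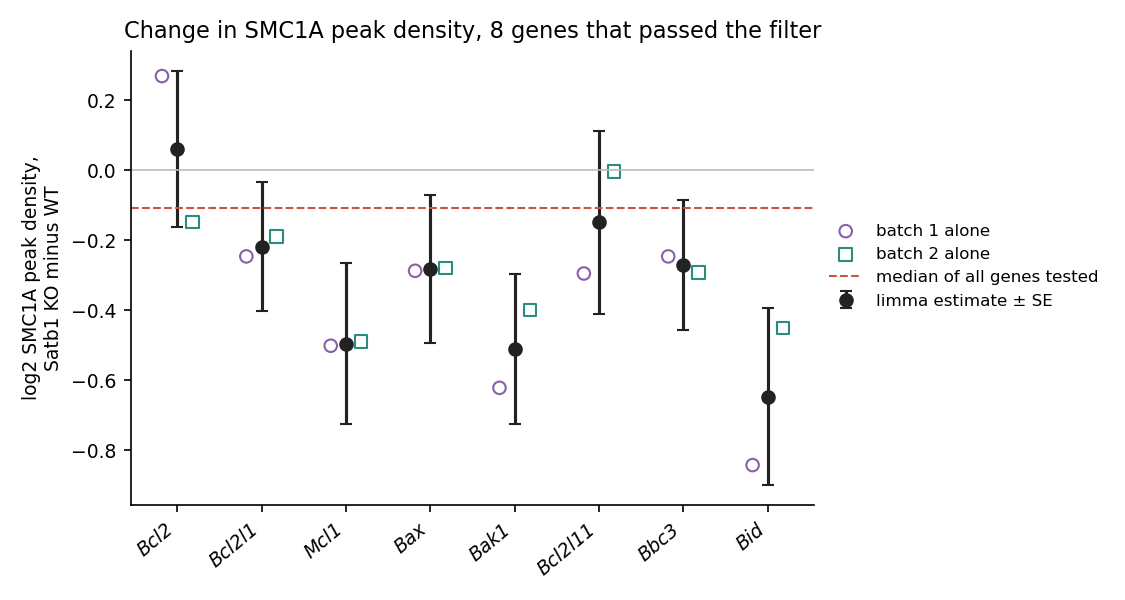
Log2 change in SMC1A peak density (y axis, Satb1 KO minus WT) of the 8 genes tested; black points are limma estimates with bars of 1 SE, open circles and squares the values within batch 1 and batch 2, and the dashed line the median of all genes tested. The estimates run from -0.65 at Bid to 0.06 at Bcl2, and those of Mcl1, Bak1 and Bid lie farthest below the median of -0.11.

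In 7 of the 8 genes both Satb1 KO densities were below both WT densities, which held for 35.4% of the 12544 genes, and in 0 of the 8 were both above, which held for 12.7%. The exception was Bcl2. Pmaip1 failed the filter and is not among the 8. Its Satb1 KO densities (0.107 and 0.145 per 1000 peaks) were both above its WT densities (0.0503 and 0.0485). They rest on 3 peaks in each Satb1 KO list and 1 in each WT list. At Bcl2l11 the gap was small, since the lower WT density was 0.291 and the higher Satb1 KO density 0.290 per 1000 peaks. Both Satb1 KO densities lay below both WT densities in 5 and 6 of the 8 genes with windows of 20 and 50 kb. Of all genes tested with those windows, 40.5% and 38.3% did so. With lists shortened to equal length the number was 4 (Mcl1, Bak1, Bbc3 and Bid), against 17.0% of all genes. With a −log10 q of 5 or more it was 2 (Mcl1 and Bcl2l1), against 24.7%, and 1 gene of the family then had both Satb1 KO densities above both WT densities, against 15.1%.

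The wider pathway, taken from lists chosen with earlier results of these data known, showed few calls. Of the other BCL-2 family genes 9 of 14 were tested and 0 were called, and 2 had an unadjusted p under 0.05 (13.9% over all genes). For the apoptosome, caspases and their inhibitors the numbers were 12 of 13, 0 and 3, and for death receptor genes 7 of 8, 0 and 2. The 3 include Birc2 and Birc3, which had equal peak numbers in every list and are not independent. Among 10 regulators of thymocyte survival, 1 was higher and 0 lower, and 6 had an unadjusted p under 0.05. The 1 called was Il7r, the interleukin 7 receptor gene, with 1 and 2 SMC1A peaks in the WT lists against 9 in each Satb1 KO list, a log2 change of 2.04 ± 0.34 (SE; limma adjusted p = 2.2e-06). CTCF peaks there numbered 1 in WT and 12 and 2 in Satb1 KO. With WT replicate 1 or 2 left out the adjusted p at Il7r was 0.29 or 0.12, and in either case 0 of the 12544 genes passed limma's adjusted threshold, while 1065 and 1063 had an unadjusted p under 0.05. Of the marker lists, 2 of 7 DP thymocyte markers were lower in Satb1 KO, the neighbours Cd8a and Cd8b1. Their windows overlap and held the same SMC1A peak numbers (24, 18, 21 and 11), with a log2 change of -0.69 ± 0.18 (SE, limma adjusted p = 0.0098). None of the 2 B cell, 3 myeloid and 2 thymic epithelial marker genes tested was called, with 0, 0 and 1 at an unadjusted p under 0.05.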

How the data were processed

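CUT&RUN libraries came from sorted DP thymocytes, with antibody for 2 h and nuclease for 1 h per the labels' protocols. Per the submitters' processing notes the build was mm10 and the tools were MACS2, Bowtie2, Trimmomatic 1.24, deepTools, SAMtools and R 4.12 (caller settings and control: not given in the sources used here). Peaks were called per library. Each deposited peak carries the authors' fold enrichment (a ratio), −log10 p, −log10 q and summit offset, with no read counts. Of 18 samples, 7 had a list used here; the other samples (input, IgG, H3K27ac, a second WT CTCF sample) were not analysed here.

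Only the autosomes, X and Y were used. Peaks of 1 mark that overlapped by 1 bp or more were merged into regions, and a peak ranks in its list by −log10 q. Positions of genes come from a RefSeq table of GRCm38.p6; exons and introns are not stated. Pile-up was solved from fold and −log10 p, whole for all 727 window peaks with −log10 p met within 0.001. For the test, log2((peaks + 0.5) per 1000000 peaks in the list) was fitted with limma 3.58.1 (R 4.3.3, trend, two-sided, Benjamini-Hochberg) over genes with a mean of 3 or more SMC1A peaks. The fitted prior degrees of freedom were 503, so genes largely share 1 spread, and windows of neighbours share peaks. In tests on the same Poisson draws 1 unchanged gene was called beside 2-fold and 1 beside 4-fold changes, and 0 with no change. False calls where libraries vary more than such draws were not simulated. Other steps used Python 3.11.15, pandas 2.3.3, numpy 2.4.6, scipy 1.17.1 and matplotlib 3.10.9.

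The members and lists were chosen with earlier results of these data known. All 9 genes are named; regions named are lost and gained SMC1A regions, up to 2 lost and 2 gained CTCF regions per gene, the best shared region per mark, and those within 1 kb of a start, with regions outside this rule (such as those downstream of Mcl1) chosen after their values were seen. Same-numbered libraries share a batch in the labels, so numbers pair them; the correlation of their deviations was -0.0079. Alternatives were the replicate block, leaving out each replicate, stricter or equally long lists, and other windows, overlap rules, pseudocount, filter, trend and centring.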

Additional observations from a re-analysis of the deposited data

How the results depend on the processing

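The 112 values of the 8 tested genes under 14 alternatives kept their side of the threshold, with a lowest adjusted p of 0.10 (limma), and 106 kept their sign. The other 6 were Bcl2 with a −log10 q of 5 or more (-0.046), without WT replicate 1 (-0.065) and without Satb1 KO replicate 1 (-0.022), where leaving out a replicate gave -0.065 to 0.19, Bcl2l11 with a −log10 q of 5 or more (0.39) and with lists of equal length (0.10), and Bid with a −log10 q of 5 or more (0.0059). The genome-wide count of called genes, 233, was less stable. It was 22 with a −log10 q of 5 or more, 0 with lists of equal length (1549 at an unadjusted p under 0.05), 62 and 146 with windows of 20 and 50 kb, 0 with library medians set to 0 (1305 unadjusted), 463 without the filter, 61 without the trend and 0 to 119 with a replicate left out. With the replicate block it was 209, and the block changed no call of the 8 genes tested. Setting library medians to 0 moved the median of all genes from -0.11 to -0.05.

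Small counts of regions moved with most choices, and the cause was not tested. Shares over the genome's regions were not computed under these alternatives, so the counts below have no background beside them. Windows of 20 and 50 kb also cover less sequence. SMC1A regions lost numbered 3, and also 3 with a −log10 q of 5 or more. They were 7 with lists of equal length, 1 and 2 with 20 and 50 kb windows, and 5 with summits within 200 bp. Gained regions numbered 2, and 7 with a −log10 q of 5 or more. They were 1 with equal lists, 0 and 1 with 20 and 50 kb, and 6 with summits. CTCF regions lost numbered 18, and 5 with a −log10 q of 5 or more. They were 9 with equal lists, 5 and 8 with 20 and 50 kb, and 39 with summits. New ones numbered 2, and in the same order of settings were 4, 5, 0, 0 and 4. Where joined peaks had to share at least 0.5 of the shorter one, 4 SMC1A regions were lost and 2 gained. For CTCF that rule gave 27 lost and 3 new. Leaving out a replicate, which asks fewer lists to hold or lack a region, gave 4 to 13 SMC1A regions lost, 4 to 14 gained, 19 to 66 CTCF regions lost and 9 to 63 new. The share of merged SMC1A regions at CTCF, 92.4%, fell to 78.4% with equal lists. That setting shortens SMC1A and CTCF lists alike, and the part of each was not tested. Of the CTCF strings, AGGGGGC alone was in 5 of the 13 promoter windows, from 3 genes (12.9% of all windows). AGGTGGC was in 1 (6.24%), and AGATGGC and AGAGGGC in 0 (6.01% and 9.11%).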
